A study of Mus musculus with 6 samples.

Results

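The nuclear receptor genes were examined in keratinocytes grown from mouse epidermis, the outer layer of the skin. A list of 46 gene symbols was looked up in the deposited count table of 23420 genes, and all 46 were present. They comprise receptors for steroids, retinoids, thyroid hormone, vitamin D, fatty acids and oxysterols, together with orphan receptors and the atypical NR0 receptors. Of the 46, 23 had enough counts to be tested and 23 did not, and 6 of the untested genes had no count in any library.

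Expression was measured by mRNA sequencing in 6 libraries. The 3 libraries labelled iKO (induced knockout) came from K14CreERT2+;Gata6 fl/fl cells. The 3 libraries labelled WT came from K14CreERT2-;Gata6 fl/fl cells. Both groups thus carried Gata6 alleles flanked by loxP sites, Gata6 being a transcription factor with zinc fingers, and the WT cells are cells without the recombinase rather than cells with unmodified Gata6. CreERT2 is a Cre recombinase fused to a mutated ligand-binding domain of oestrogen receptor alpha, which 4-hydroxytamoxifen activates. Here the keratin 14 promoter, active in basal keratinocytes, drove it. All cultures were at passage 8 to 10 in low-calcium E medium and had received 1 µM 4-hydroxytamoxifen for 6 hours, so there was no library without this oestrogen receptor ligand. The study compared the groups to find genes that differ between them. Whether libraries with the same label came from different cultures or animals is not stated, so the p-values reflect only how much these libraries spread, which may be technical.

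The gene targeted in the study ran counter to the labels. Gata6 had 14.2, 21.0 and 17.0 CPM (counts scaled to library size) in the libraries labelled iKO 3, iKO 4 and iKO 33 (a column whose number matches no sample title), against 2.86, 0.519 and 5.37 CPM in WT 2, WT 3 and WT 4. Counts of a whole gene cannot show whether the exons between the loxP sites were present. Groups are therefore called by their labels, and all directions are those of iKO libraries against WT libraries as labelled. The label also coincided with sex: Xist averaged 1.17 ± 1.31 CPM in iKO and 736 ± 143 CPM in WT (SD, n = 3 each), so transgene, label and sex cannot be told apart. Gene counts per library lay between 32751896 and 83337263 in iKO and between 21943467 and 79055307 in WT. Keratinocyte markers summed to 32793 to 48085 CPM in iKO and 31283 to 43860 CPM in WT. Summed markers of fibroblasts, melanocytes, immune cells and endothelial cells each stayed at or below 8.94 CPM in iKO and 19.0 CPM in WT. The defining genes Dcn, Lum, Dct and Cd207 had no count. Summed endothelial markers were at 7.29 to 8.94 CPM in iKO, against 9.31, 19.0 and 10.0 CPM in WT 2, WT 3 and WT 4. Their tested genes, Kdr and Pecam1, had overlapping groups (edgeR adjusted p = 0.387 and 0.674). The keratinocyte factor Trp63 was at 199.6 ± 7.86 CPM in iKO and 320.5 ± 12.3 CPM in WT, without overlap (adjusted p = 0.0529 with edgeR and 9.09e-09 with DESeq2). Trp63 was the 1 of 7 keratinocyte markers called by DESeq2, against 6.49% of all genes with a DESeq2 adjusted p. The part of the endothelial markers or of Trp63 in the results was not tested. In bulk samples, fewer cells of a type and less RNA per cell cannot be told apart.

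Nuclear receptors are transcription factors, and many are switched by small fat-soluble ligands. A typical member has a DNA-binding domain of a pair of zinc fingers and a ligand-binding domain that recruits coactivators or corepressors. Many of them pair with a retinoid X receptor, whereas steroid receptors bind DNA as pairs with themselves and wait for hormone in complexes with heat shock chaperones. In the epidermis, retinoid, vitamin D, glucocorticoid, PPAR and liver X receptors are known for their parts in keratinocyte differentiation and in the lipids of the skin barrier.

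The members sort into families by the P box, a short stretch at the base of the first zinc finger that helps choose the DNA sequence a receptor binds. The stretch of 30 bases that codes for it was found in 44 of the 46 genes by a zinc finger pattern search of GENCODE vM21 transcripts (GRCm38/mm10). It was not found in Nr0b1 and Nr0b2, which lack the DNA-binding domain. The sequences below are shown because they place Esr1 beside its relatives and lie in the DNA-binding domain, a domain that CreERT2 does not carry. Each runs 5′ to 3′ on the coding strand, and capitals mark the 3 codons by which the P boxes were compared here. Nr2e1 and Nr2e3 also differ from the others at the codon just before the last of these, which was not used.
Esr1, chr10:4746768-4746797, plus strand: tgcGAAGGCtgcaagGCTttctttaagaga
Esr2, chr12:76165459-76165488, minus strand: tgtGAAGGAtgtaagGCCttttttaaaaga
Esrra, chr19:6920073-6920102, minus strand: tgtGAGGCCtgcaaaGCCttcttcaagagg
Rxra, chr2:27741787-27741816, plus strand: tgtGAGGGCtgcaagGGCttcttcaagagg
Nr1h2, chr7:44552088-44552117, minus strand: tgtGAAGGCtgcaaaGGCttcttccggcgc
Nr2f2, chr7:70360015-70360044, minus strand: tgcGAGGGCtgcaagAGCttcttcaagcgc
Nr2f6, chr8:71381023-71381052, minus strand: tgcGAGGGCtgcaagAGTttcttcaagcgc
Nr6a1, chr2:38760314-38760343, minus strand: tgcGAGGGCtgcaagGGGtttttcaagagg

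Translated at those 3 codons, the 44 stretches fell into 8 types. The most common type was shared by 27 members, 17 of them tested, and runs from the retinoid receptors to Nr6a1. Esr1 and Esr2 made up a type of their own, although their stretches matched at 24 of 30 bases, the same number as for Esr1 and Rxra. Esrra, Esrrb and Esrrg formed a further type, as did Nr2f1, Nr2f2 and Nr2f6, and as did Pgr, Nr3c1 and Nr3c2. The deposited counts are per gene, so reads over these stretches were not analysed here.

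Esr1 encodes oestrogen receptor alpha (chromosome 10, 4611593 to 5005614, plus strand, mm10). It had 3107, 4148 and 2519 counts in iKO 3, iKO 4 and iKO 33, against 2, 5 and 10 counts in WT 2, WT 3 and WT 4. Normalised, that was 99.3, 92.2 and 29.6 CPM in iKO, against 0.0922, 0.0633 and 0.284 CPM in WT. All iKO libraries stood far above all WT libraries, and iKO 33 was the lowest of its group. The means were 73.7 ± 38.3 CPM in iKO and 0.147 ± 0.120 CPM in WT (SD, n = 3 each). The log2 fold change was 9.10 (SE 0.75, 95% interval 7.33 to 10.9, edgeR adjusted p = 0.00678), rank 4 among the 12672 tested genes by size of the rise. Ranks 1, 2 and 3 were held by Kdm5d, Eif2s3y and Ddx3y, which are genes of the Y chromosome. Pooled over libraries, 9774 counts in iKO against 17 in WT gave a ratio of 484, with a 95% counting interval of 302 to 832 that covers counting error only.

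Esr1 was the only member called at an adjusted p of 0.05. That is 1 of 23 tested members, against 0.339% of all tested genes called in either direction and 0.229% called higher. Esr1 passed the filter on low counts through its iKO libraries alone, so it had to differ once it was tested. The call held in 15 of 18 alternative settings. It was lost with limma-voom (adjusted p = 0.0618), without WT 2 (adjusted p = 0.0877) and in the 4 libraries numbered 3 and 4 fitted without a block (adjusted p = 0.0878). Over all alternatives the log2 fold change stayed between 8.45 and 9.97, and the adjusted p between 5.77e-47 (DESeq2) and 0.0878.

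Krt14, whose promoter drives the transgene, is the keratin of basal keratinocytes. It had 21993, 14373 and 13920 CPM in iKO 3, iKO 4 and iKO 33, against 18020, 13899 and 12916 CPM in WT 2, WT 3 and WT 4. The groups overlapped for Krt14. Per 1000 Krt14 counts there were 4.52, 6.41 and 2.13 Esr1 counts in iKO, against 0.00512, 0.00456 and 0.0220 in WT. The order of the iKO libraries thus differed between the measures: iKO 3 was highest in Esr1 CPM, and iKO 4 was highest in Esr1 per Krt14. Whether the Esr1 counts came from the resident gene, from the oestrogen receptor part of the transgene or from a difference between sexes cannot be told apart in these groups.

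**Figure D1:**
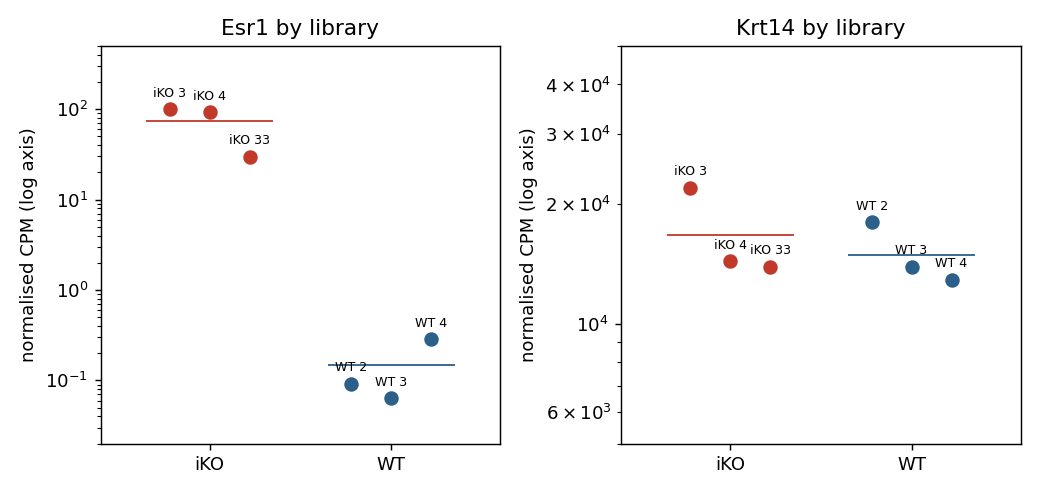
Normalised CPM of Esr1 (left panel) and Krt14 (right panel) on log axes, 1 point per library and a line at the group mean, with iKO left of WT. Esr1 lay between 29.6 and 99.3 CPM in iKO and did not exceed 0.284 CPM in WT, whereas the Krt14 values of the groups overlapped.

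Levels of different members can be compared only per length. On the RPKM scale (counts per kilobase of exon, scaled to library size, computed from annotated exon lengths), Rxra was the most abundant member, with 30.6 ± 6.27 RPKM in iKO and 37.9 ± 6.09 RPKM in WT (SD, n = 3 each). Vdr, Rarg, Ppard, Nr2f6 and Nr1h2 followed, with means over all libraries between 24.6 and 15.8 RPKM. The ranges over libraries of neighbours in this order overlapped, so the order within this group is not fixed by these data. Nr3c1, Esrra and Rxrb formed the next group at means of 12.8, 12.7 and 10.9 RPKM. Nr2f2 and Nr2c1 came next at 5.11 and 5.04 RPKM. A lower group between 3.07 and 1.07 RPKM held Nr1d2, Rara, Nr4a1, Nr2c2, Thra, Nr1d1 and Nr6a1. Nr4a2, Esr2, Ppara and Rora closed the order of tested members, at 0.217, 0.184, 0.0517 and 0.0172 RPKM.

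Esr1 took different places in this order in the groups. At 5.40 ± 2.81 RPKM in iKO it lay near Nr2c1 (5.21 ± 0.271 RPKM), and at 0.0107 ± 0.00879 RPKM in WT it lay below Rora (0.0134 ± 0.00792 RPKM), with ranges that overlapped. All counts of the annotated gene entered this value over an exon length of 13661 bases, so the level per length would be understated if reads covered only part of it. Together the 46 genes took 0.116%, 0.0991% and 0.103% of gene counts in iKO 3, iKO 4 and iKO 33, against 0.109%, 0.108% and 0.101% in WT 2, WT 3 and WT 4. In every library 19 members exceeded 1 CPM, of which 18 were the same genes throughout. The remaining one was Esr1 in the iKO libraries and Nr4a2 in the WT libraries.

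**Figure D2:**
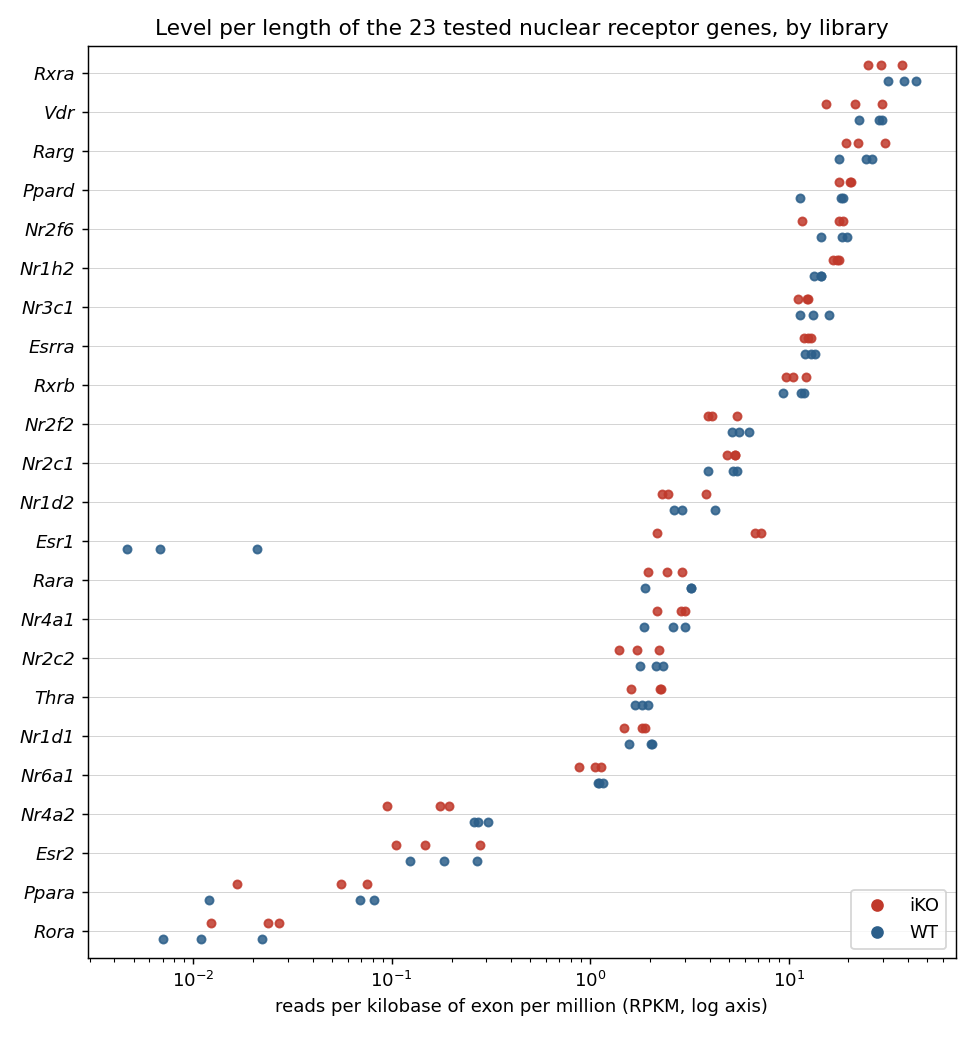
RPKM, counts per kilobase of exon scaled to library size (log axis), of the 23 tested nuclear receptor genes, ordered by their mean over 6 libraries, with the iKO points drawn above the WT points for each gene. Esr1 is the gene whose groups lie far apart, and Rxra is the highest at 30.6 ± 6.27 RPKM in iKO and 37.9 ± 6.09 RPKM in WT.

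None of the other 22 tested members passed the test. Their log2 fold changes lay between -0.83 and 0.55, with a median of -0.13, beside a median of 0.01 over all tested genes, which other scalings moved by less than 0.1. None was called by edgeR (lowest adjusted p = 0.257), by DESeq2 (6.49% of all genes with an adjusted p) or in the authors' deposited table (5.9%). For 18 of the 22, the 95% interval of the fold change lay within 1 log2 unit of 0, while the intervals of Esr2, Ppara, Rora and Nr4a2 reached beyond it. Over all 23 tested members, 8 fold changes were positive and 15 negative, beside 6483 positive and 6189 negative over all tested genes. At an unadjusted p under 0.05 there were 2 members, Esr1 and Nr1h2, against 15% of all tested genes (7.32% higher, 7.7% lower). For 3 of 23 members (13%), Esr1, Nr1h2 and Nr4a2, the iKO and WT values did not overlap, against 21.9% of all tested genes.

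**Figure D3:**
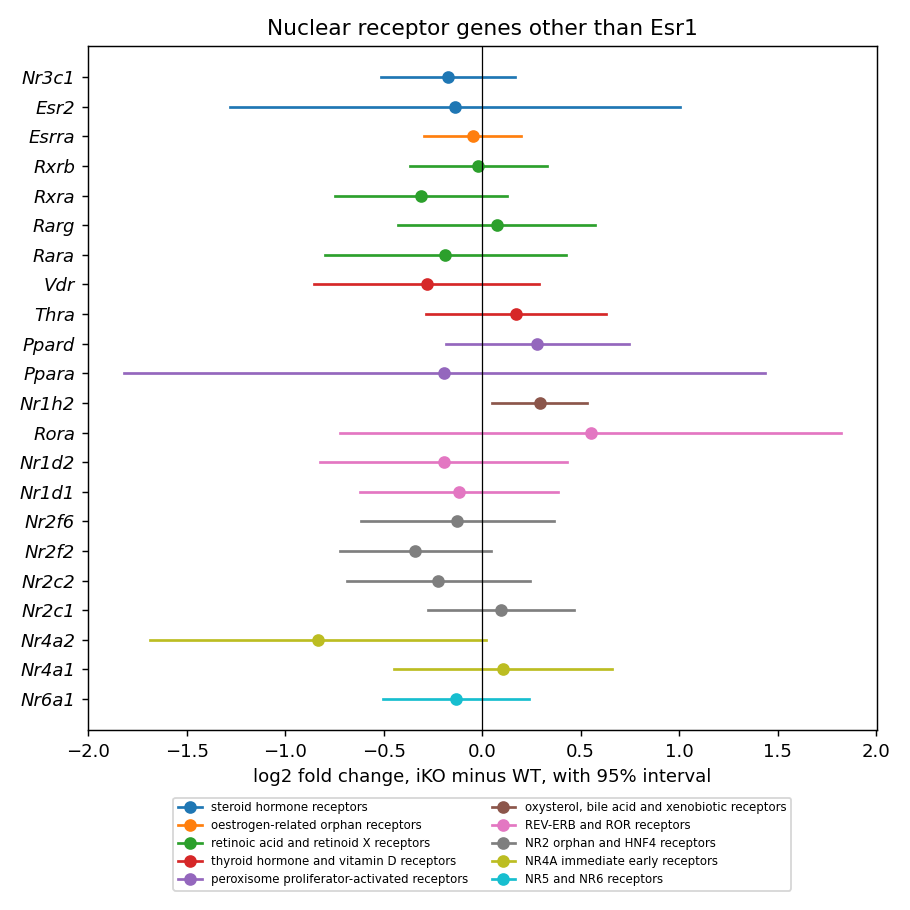
log2 fold change, iKO minus WT, with its 95% interval for the 22 tested nuclear receptor genes other than Esr1, coloured by class. Nr1h2 (0.29) is the gene whose interval lies wholly to one side of 0, and the longest intervals belong to the low-count genes Ppara, Rora and Esr2.

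Among the steroid receptors, Nr3c1, the glucocorticoid receptor, was abundant and did not pass the test. It had 96.4, 85.4 and 94.9 CPM in iKO 3, iKO 4 and iKO 33, against 87.3, 122 and 102 CPM in WT 2, WT 3 and WT 4. The groups overlapped (log2 fold change -0.17, SE 0.14, 95% interval -0.51 to 0.17, edgeR adjusted p = 0.634). Esr2, oestrogen receptor beta, was low, at 0.593 ± 0.303 CPM in iKO and 0.648 ± 0.249 CPM in WT (log2 fold change -0.14, SE 0.48). Pgr, the progesterone receptor, had no count, which allows up to 0.0101 CPM over all 6 libraries. Nr3c2, the mineralocorticoid receptor, had 7 counts in all. Per length, Nr3c1 lay above Esr1 in both groups, at 12.0 ± 0.780 RPKM in iKO and 13.5 ± 2.28 RPKM in WT.

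Esrra, an orphan receptor related to the oestrogen receptors and known for control of mitochondrial genes, was among the steadiest members. It had 54.7, 52.5 and 57.2 CPM in iKO, against 57.2, 59.4 and 53.3 CPM in WT. The interval of its log2 fold change was narrow, -0.29 to 0.20 (log2 fold change -0.05, SE 0.10, edgeR adjusted p = 0.877). Its relatives Esrrb and Esrrg had 3 counts and 1 count in all.

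The retinoid receptors were led by Rxra, the common partner of many other members. Rxra had 205, 138 and 159.5 CPM in iKO 3, iKO 4 and iKO 33, against 208, 239.9 and 173 CPM in WT 2, WT 3 and WT 4. The group means differed by -0.31 on the log2 scale (SE 0.19, 95% interval -0.74 to 0.13, edgeR adjusted p = 0.486), and the highest iKO library exceeded the lowest WT library. Rarg, the main retinoic acid receptor of the epidermis, averaged 103 ± 24.7 CPM in iKO and 97.9 ± 18.5 CPM in WT, a log2 fold change of 0.07 (SE 0.21). Rxrb and Rara gave log2 fold changes of -0.02 (SE 0.15) and -0.19 (SE 0.26). Rarb and Rxrg had 39 and 23 counts in all and were not tested. Of the 4 tested retinoid receptors edgeR called none, against 0.339% of all tested genes.

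Vdr, the vitamin D receptor, was among the more abundant members per length. It had 168, 86.8 and 122 CPM in iKO, against 162, 167 and 128 CPM in WT. The iKO libraries spread more widely than the WT libraries, and the groups overlapped (log2 fold change -0.28, SE 0.24, 95% interval -0.85 to 0.29, edgeR adjusted p = 0.641). Thra, a thyroid hormone receptor, averaged 9.41 ± 1.70 CPM in iKO and 8.37 ± 0.626 CPM in WT, a log2 fold change of 0.17 (SE 0.19). Thrb, the other thyroid hormone receptor, had 24 counts in all.

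Ppard, a fatty acid receptor that is the main PPAR of the epidermis, had 153, 156 and 135 CPM in iKO, against 142, 86.3 and 137 CPM in WT. The single low library was WT 3, and the other WT libraries lay among the iKO values (log2 fold change 0.28, SE 0.20, 95% interval -0.18 to 0.74, edgeR adjusted p = 0.560). Ppara, best known in liver, averaged 0.188 ± 0.114 CPM in iKO and 0.208 ± 0.142 CPM in WT (log2 fold change -0.19, SE 0.69). Pparg, the receptor of fat cells and sebocytes, had 41 counts in all and was not tested. Markers of adipocytes summed to at most 0.0320 CPM in any library, and those of sebocytes to at most 0.227 CPM.

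Nr1h2, liver X receptor beta, senses oxysterols. It had 59.9, 56.0 and 59.1 CPM in iKO 3, iKO 4 and iKO 33, against 48.8, 49.0 and 45.0 CPM in WT 2, WT 3 and WT 4. The groups did not overlap, and the spread within each was small: 58.3 ± 2.08 CPM in iKO and 47.6 ± 2.26 CPM in WT (SD, n = 3 each). The log2 fold change of 0.29 (SE 0.10, 95% interval 0.05 to 0.53) had an unadjusted edgeR p of 0.0236 and did not pass adjustment over all genes (adjusted p = 0.257). It was positive in all 18 alternatives, between 0.24 and 0.32, and called in none. Nr1h3, liver X receptor alpha, had 23 counts in all, so the counts of this pair came almost wholly from Nr1h2. Of the bile acid and xenobiotic receptors, Nr1h4 (FXR) had 8 counts and Nr1i3 (CAR) 14, and Nr1i2 (PXR) had none.

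The REV-ERB receptors are repressors in the circadian clock, and the ROR receptors act on the same elements as activators. Nr1d2 had 13.4, 12.4 and 20.7 CPM in iKO, against 15.7, 23.1 and 14.4 CPM in WT. Its groups overlapped (log2 fold change -0.19, SE 0.27), and 1 deep library in each group, iKO 33 and WT 3, was the high one. Nr1d1 averaged 5.33 ± 0.667 CPM in iKO and 5.80 ± 0.822 CPM in WT (log2 fold change -0.12, SE 0.21). Exons of Nr1d1 and Thra overlap by 263 bases on opposite strands, which is 8.55% of the exon bases of Nr1d1. Rora had 0.160, 0.311 and 0.353 CPM in iKO, against 0.0922, 0.291 and 0.142 CPM in WT, all from 30 counts or fewer per library (log2 fold change 0.55, SE 0.54). Rorb had 30 counts in all and was not tested.

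Of the NR2 orphan receptors, Nr2f2 (COUP-TFII) had 47.5, 35.5 and 33.9 CPM in iKO, against 54.4, 48.5 and 44.8 CPM in WT. Only iKO 3 lay within the WT range (log2 fold change -0.34, SE 0.16, 95% interval -0.72 to 0.04, edgeR adjusted p = 0.386). Nr2f6, which shares its P box type and is the most abundant of these genes per length, had 53.4, 35.1 and 56.2 CPM in iKO, against 55.6, 58.6 and 43.5 CPM in WT. Its groups overlapped (log2 fold change -0.12, SE 0.21). Nr2c2 (TR4) had 20.8, 33.2 and 25.9 CPM in iKO, against 31.9, 26.6 and 34.7 CPM in WT, and again the groups overlapped (log2 fold change -0.22, SE 0.20). Nr2c1 (TR2) gave 0.10 (SE 0.16). Part of the exons of Nr2f6 (54.4%, with Ocel1), Nr2c2 (30.7%, with Mrps25), Nr2f2 (7.46%, with B130024G19Rik) and Esrra (1.66%, with Trmt112) overlap a gene on the other strand. The sources used here do not give the strand setting of the counting, so the levels of these genes are uncertain to that extent.

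The NR4A receptors are immediate early genes that act without a known hormone. Nr4a1 had 7.58, 10.5 and 10.1 CPM in iKO, against 9.17, 6.56 and 10.5 CPM in WT (log2 fold change 0.11, SE 0.23). Nr4a2 was lower in each iKO library than in any WT library, at 0.384, 0.711 and 0.788 CPM in iKO, against 1.11, 1.24 and 1.05 CPM in WT. Its log2 fold change of -0.83 (SE 0.36, 95% interval -1.69 to 0.02) did not pass (edgeR adjusted p = 0.346) and rested on 12 to 67 counts per iKO library and 24 to 98 per WT library. It was negative in all 18 alternatives, between -1.09 and -0.59. Nr4a3 had 14 counts in all. Nr6a1, an orphan receptor of germ cells and embryos, had 9.50, 12.3 and 11.5 CPM in iKO, against 12.0, 12.6 and 11.9 CPM in WT, with overlapping groups (log2 fold change -0.13, SE 0.16).

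The 23 untested members were sparse in both groups. No count was seen for Pgr, Nr1i2, Nr2e3, Nr2f1, Nr5a2 and Nr0b1. The other 17 had between 1 and 41 counts over all 6 libraries, and Pparg, Rarb, Hnf4a and Rorb led them with 41, 39, 38 and 30. Hnf4a and Hnf4g (24 counts), receptors of liver and gut, Nr5a1 (7 counts), a receptor of steroid-producing organs, Nr2e1 (1 count), a receptor of neural stem cells, and Nr0b2 (2 counts), a corepressor best known in liver, belong to this group. Fitted without a filter, none of the 17 was called (lowest adjusted p = 0.613). Differences in these genes were not detectable at this depth. Of the untested genes, Nr1i3 and Rarb share 74.9% and 34.1% of their exon bases with a gene on the other strand.

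Promoter windows of RefSeq genes (GRCm38.p6, from 250 bases before to 50 after each start) were available for 42 of the 46 members, with 63 windows in all. GATA hexamers, which are AGATAA and its variants with T first or G last, searched on both strands, stood in 15 of the 63, against 29.8% of all 32851 windows. The letters AGGTCA, which many nuclear receptors bind, stood in 12 of the 63, against 16.3% of all windows. These matches are descriptions of letters only.

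Among the receptor cofactors, Ppargc1b came nearest to the threshold. Of 16 coactivator genes, which help ligand-bound receptors to activate transcription, 15 were tested, 5 with positive and 10 with negative fold changes (median -0.20), and edgeR called none, against 0.339% of all tested genes. At an unadjusted p under 0.05 there were 2, against 15% of all tested genes, and DESeq2 called 1, against 6.49%. Leaving out single libraries put the list's median between -0.27 (without iKO 4) and -0.12 (without iKO 3). Ppargc1b, PGC-1 beta, is a coactivator of Esrra and other receptors that is known for mitochondrial gene control. It had 1.31, 1.44 and 1.71 CPM in iKO 3, iKO 4 and iKO 33, against 4.75, 4.65 and 4.69 CPM in WT 2, WT 3 and WT 4. The groups were far apart with little spread, at a log2 fold change of -1.65 (SE 0.24). The edgeR adjusted p was 0.0546, just short of the threshold, and 1.27e-07 with DESeq2. It passed in 5 of 18 alternatives, of which 1 was the looser threshold of 0.1, and over the 18 the adjusted p ran up to 0.563. Ncoa3, a p160 coactivator, averaged 51.2 ± 0.737 CPM in iKO and 64.1 ± 8.27 CPM in WT (log2 fold change -0.33, SE 0.13, edgeR adjusted p = 0.294). Ppargc1a, PGC-1 alpha, had 7 counts in all.

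All 10 corepressor genes were tested, with 5 positive and 5 negative fold changes, a median of 0.00 and no call (0 at an unadjusted p under 0.05, 0 by DESeq2). Nrip1, itself an oestrogen-induced corepressor in other tissues, averaged 29.2 ± 3.78 CPM in iKO and 24.7 ± 5.20 CPM in WT (log2 fold change 0.25, SE 0.19). Hdac3, the deacetylase of the NCoR complexes, averaged 107 ± 4.31 CPM in iKO and 115 ± 2.99 CPM in WT (log2 fold change -0.10, SE 0.09). All 10 chaperones of steroid receptors were tested as well, 6 positive and 4 negative, with a median of 0.01. They had no call (0 at an unadjusted p under 0.05, 0 by DESeq2), against the same shares over all tested genes. Fkbp4, a cochaperone of steroid receptors, averaged 229 ± 55.1 CPM in iKO and 327 ± 64.3 CPM in WT (log2 fold change -0.51, SE 0.22, edgeR adjusted p = 0.345).

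None of the tested genes on the list of oestrogen receptor targets was called by edgeR in either direction, against 0.339% of all tested genes. Of 9 genes on that list 6 were tested, 4 positive and 2 negative, with a median of 0.24 (-0.49 over the list with no filter on low counts). At an unadjusted p under 0.05 there were 0, against 15% of all tested genes, and DESeq2 called 0, against 6.49%. Without WT 4 the median was 0.48. Greb1, a target well known from breast cells, averaged 1.46 ± 0.553 CPM in iKO and 2.51 ± 0.344 CPM in WT (log2 fold change -0.76, SE 0.34, edgeR adjusted p = 0.358). Greb1 was the 1 tested gene of the list whose groups did not overlap (16.7%, against 21.9% of all tested genes). Ctsd averaged 937 ± 237 CPM in iKO and 715 ± 68.0 CPM in WT (log2 fold change 0.39, SE 0.19). Tff1, Ltf and Cxcl12 had 1, 8 and 6 counts in all. Per the labels, the cells of both groups had received the receptor ligand 4-hydroxytamoxifen.

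Of the 12 glucocorticoid receptor target genes, all tested, 4 were positive and 8 negative (median -0.20), and edgeR called none. At an unadjusted p under 0.05 there were 2, against 15% of all tested genes, and DESeq2 called 0, against 6.49%. The sign of the median turned with 1 library, at 0.14 without WT 3 and -0.30 without WT 4. Sgk1, a kinase induced by glucocorticoids, averaged 22.4 ± 8.99 CPM in iKO and 43.7 ± 9.40 CPM in WT (log2 fold change -0.97, SE 0.33, edgeR adjusted p = 0.253). Ddit4 averaged 72.6 ± 23.4 CPM in iKO and 39.9 ± 11.1 CPM in WT, so the fold changes of these targets of the same receptor had opposite signs (log2 fold change 0.86, SE 0.29, edgeR adjusted p = 0.252). Dusp1, a phosphatase of stress kinases, averaged 52.2 ± 40.0 CPM in iKO and 25.2 ± 3.47 CPM in WT, with iKO 3 far above the rest (log2 fold change 1.05, SE 0.49, edgeR adjusted p = 0.372; 0.21 without iKO 3).

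Target lists of the PPAR and liver X receptors leaned to positive fold changes without an edgeR call. Of 13 PPAR target genes 9 were tested, 8 positive and 1 negative (Acot1, -0.85, SE 0.50), with a median of 0.30. At an unadjusted p under 0.05 there were 2, against 15% of all tested genes, and DESeq2 called 2. The median was 0.05 without WT 4 and 0.44 without iKO 4. Plin2, which coats lipid droplets, had 209.6, 199 and 173 CPM in iKO 3, iKO 4 and iKO 33, against 116, 90.9 and 111 CPM in WT 2, WT 3 and WT 4. The groups did not overlap (log2 fold change 0.87, SE 0.14, adjusted p = 0.0609 with edgeR and 5.71e-06 with DESeq2). Cpt1a, the carnitine transferase of mitochondrial fatty acid uptake, had 59.5, 37.7 and 39.5 CPM in iKO, against 30.0, 24.5 and 28.8 CPM in WT. It too had separate groups (log2 fold change 0.72, SE 0.20, adjusted p = 0.182 with edgeR and 0.0329 with DESeq2). Over 18 alternatives the adjusted p reached 0.543 for Plin2 and 0.633 for Cpt1a. DESeq2 called 6.49% of the 11931 genes for which it gave an adjusted p.

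Of 8 liver X receptor target genes 7 were tested, 6 positive and 1 negative, with a median of 0.31. At an unadjusted p under 0.05 there were 2, against 15% of all tested genes, and DESeq2 called 1, against 6.49%. Abca1, the cholesterol exporter, had 5.63, 2.71 and 6.66 CPM in iKO, against 0.876, 1.33 and 1.54 CPM in WT. Every iKO library exceeded every WT library (log2 fold change 1.99, SE 0.41, adjusted p = 0.110 with edgeR, 0.000527 with DESeq2 and up to 0.633 over 18 alternatives). Srebf1, the regulator of fatty acid synthesis genes, averaged 77.4 ± 5.07 CPM in iKO and 62.3 ± 3.43 CPM in WT (log2 fold change 0.31, SE 0.11, edgeR adjusted p = 0.253). Abcg1 averaged 21.0 ± 8.07 CPM in iKO and 13.4 ± 2.85 CPM in WT, with overlapping groups (log2 fold change 0.64, SE 0.29, edgeR adjusted p = 0.364). The list's groups did not overlap for 3 of 7 tested genes, Abca1, Srebf1 and Lpcat3, against 21.9% of all tested genes. That 42.9% was the highest share among the cofactor, target, clock and immediate early lists. Coactivators, retinoic acid receptor targets and vitamin D receptor targets had 33.3% each. Immediate early genes and thyroid hormone receptor targets had 0%. Leaving out single libraries put the list's median between 0.21 (without WT 3) and 0.49 (without WT 4).

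The retinoic acid receptor targets had the highest median of the 12 lists, 0.92 over 6 tested genes of 8, with 5 positive, 1 negative and no edgeR call. At an unadjusted p under 0.05 there was 1, against 15% of all tested genes, and DESeq2 called 1, against 6.49%. Without WT 3 the median was 0.51. Crabp2, which carries retinoic acid to its receptors, had 74.3, 46.4 and 63.4 CPM in iKO 3, iKO 4 and iKO 33, against 15.2, 22.5 and 11.8 CPM in WT 2, WT 3 and WT 4. The lowest iKO library was well above the highest WT library (log2 fold change 1.89, SE 0.28, adjusted p = 0.0576 with edgeR, 2.41e-08 with DESeq2 and up to 0.583 over 18 alternatives). Tgm2 averaged 117 ± 99.9 CPM in iKO and 42.0 ± 28.6 CPM in WT, with iKO 3 far above the rest (log2 fold change 1.48, SE 0.71, edgeR adjusted p = 0.386; 0.51 without iKO 3). Cyp26b1, which breaks retinoic acid down, was the negative one, at 71.1 ± 29.2 CPM in iKO and 105.6 ± 33.2 CPM in WT (log2 fold change -0.57, SE 0.35).

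**Figure D4:**
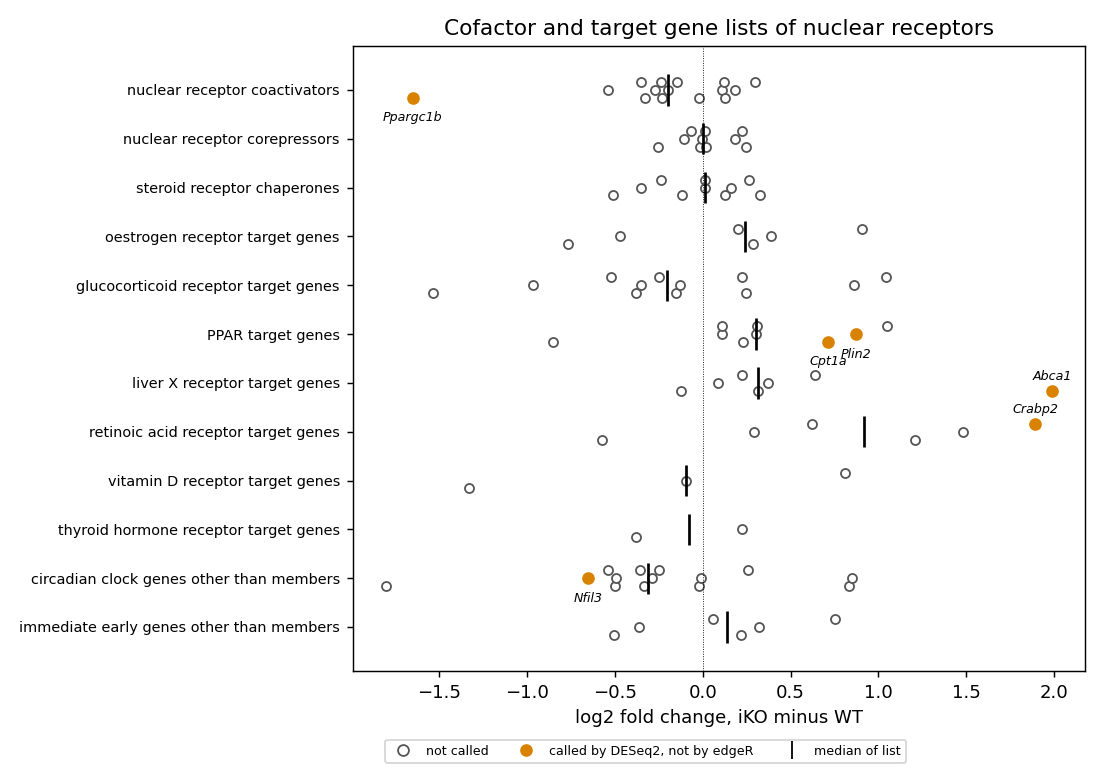
log2 fold change, iKO minus WT, of each tested gene in 12 lists of receptor cofactors, receptor target genes and clock and immediate early genes, 1 circle per gene, with a bar at the list's median. The filled points are the 6 genes called by DESeq2 and not by edgeR, and the retinoic acid receptor targets have the highest median, 0.92.

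The vitamin D and thyroid hormone target lists were thinly covered, with 3 of 5 and 2 of 5 genes tested. None was called by edgeR or DESeq2, against 0.339% and 6.49% of all tested genes, and 0 had an unadjusted p under 0.05, against 15%. Trpv6, a calcium channel, averaged 0.181 ± 0.125 CPM in iKO and 0.451 ± 0.0487 CPM in WT (log2 fold change -1.33, SE 0.59, edgeR adjusted p = 0.355). Cyp24a1, the gene most used as a readout of vitamin D, had 8 counts in all.

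Among 15 clock genes other than the members, 14 were tested, 3 positive and 11 negative, with a median of -0.31 and no edgeR call. At an unadjusted p under 0.05 there were 2, against 15% of all tested genes, and DESeq2 called 1, against 6.49%. The median was -0.51 without iKO 33 and -0.14 without WT 2. Nfil3, a repressor that shares target elements with Dbp, had 19.5, 15.6 and 15.7 CPM in iKO 3, iKO 4 and iKO 33, against 30.1, 27.0 and 22.7 CPM in WT 2, WT 3 and WT 4. Its groups did not overlap (log2 fold change -0.65, SE 0.16, adjusted p = 0.158 with edgeR, 0.0160 with DESeq2 and up to 0.644 over 18 alternatives). Per2, a core clock repressor, averaged 0.911 ± 0.541 CPM in iKO and 3.24 ± 1.93 CPM in WT, with overlapping groups (log2 fold change -1.80, SE 0.64, edgeR adjusted p = 0.262). The 7 immediate early genes set beside the NR4A genes had 6 tested, 4 positive and 2 negative, with a median of 0.14, no call by either tool and 0 at an unadjusted p under 0.05. That median was -0.22 without iKO 3 and 0.33 without iKO 4. Junb averaged 170.4 ± 30.6 CPM in iKO and 136 ± 14.96 CPM in WT (log2 fold change 0.32, SE 0.16).

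**Figure D5:**
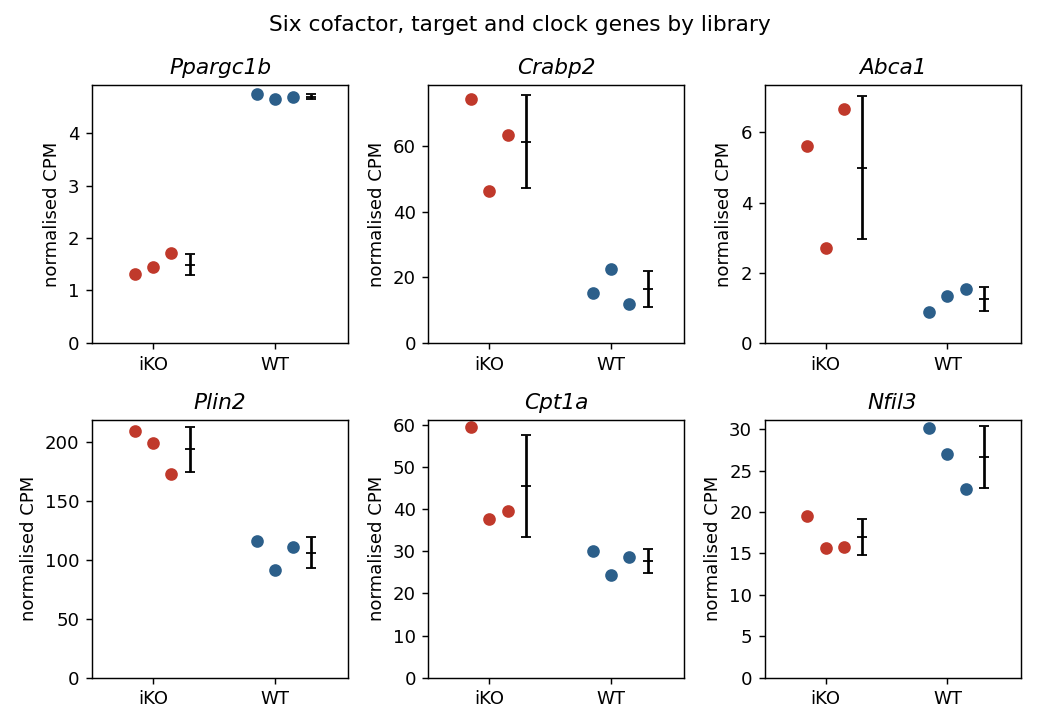
Normalised CPM by library of the 6 list genes called by DESeq2 and not by edgeR, with iKO left of WT and a bar for the mean and SD of each group, n = 3. Ppargc1b and Nfil3 are lower in iKO, and Crabp2, Abca1, Plin2 and Cpt1a are higher. The groups do not overlap in any of the 6, against 21.9% of all tested genes. The 6 were picked by DESeq2 calls on the same counts, which favours separate groups.

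The authors' deposited table gave a log2 fold change of 3.94 for Esr1 (SE 0.297, adjusted p = 1.47e-36), against 9.10 found here from the counts. Its fold changes were also smaller in size for Xist (-0.84 against -9.37) and Kdm5d (5.54 against 12.8). The sizes of large fold changes are thus not comparable between the sources, and the reason was not tested. The authors' deposited table called 1 of 21 members with an adjusted p, against 5.9% of 12494 genes. For Nr1h2 the authors' deposited table gave 0.28 (SE 0.116, adjusted p = 0.157), close to the value found here.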

How the data were processed

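Libraries were made from total RNA with a TruSeq RNA v2 kit, per the labels' protocols. TopHat2, HTSeq, DESeq2, DESeq and mm10 are named, without versions, in the submitters' processing notes; annotation and strand were not given in the sources used here. As deposited, the count table holds raw read counts per gene symbol for 23420 genes and 5 HTSeq summary rows, which took 27.4% to 35.5% of counts and were left out. The other deposited table has, per the file headers, a DESeq2 mean signal, log2 fold changes, a Wald score and p-values. The column numbered 33 matches no sample title and was used as an iKO replicate without a number of its own; no column was matched to the sample titled iKO2. Every pair of libraries with the same label differed by more than sampling noise (lowest chi-square per degree of freedom 50.0).

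Counts were fitted in R 4.3.3 with edgeR 4.0.16: filterByExpr (minimum count 10), TMM factors, robust glmQLFit and glmQLFTest, two-sided, group as the only term, Benjamini-Hochberg adjustment over all 12672 tested genes at 0.05. Each SE is the size of the log2 fold change over the root of F. CPM use TMM-scaled library sizes. RPKM use exon lengths of GENCODE vM21. Without counts, 3 counts are the floor; 3 counts are between 0.0353 and 0.138 CPM in single libraries. Floors and the interval of the pooled Esr1 ratio cover counting error only, while intervals of log2 fold changes come from the edgeR SE. The fit was tested on simulated data. The members and lists were chosen with earlier results of these data known, and lists are described by counts and medians. Named were all members, by class, and from each list the called genes and at most 3 with the smallest p, with some untested list genes by their counts, and a list gene that the rule names is not reported here; Krt14 and Gata6 were named as checks, and Lpcat3, Cyp26b1 and Trp63 after their values were seen. Alternatives were other scalings and filters, DESeq2 1.42.0, limma-voom (limma 3.58.1), no robust estimation, a threshold of 0.1, a block on the numbers 3 and 4, each library left out, and no genes of X and Y.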

Additional observations from a re-analysis of the deposited data

How the results depend on the processing

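Of all tested genes 43 were called, against 76 with no filter, 774 with DESeq2, 152 at an adjusted p of 0.1, 103 with the replicate block and 4 in the same 4 libraries without it; leaving out single libraries gave 7 (without WT 2) to 31. The 1 called member, Esr1, became 0 with limma-voom (log2 fold change 8.99), in the 4 libraries without the block (9.36) and without WT 2; over left-out libraries its log2 fold change ran from 8.45 to 9.97. In the 4 libraries, 5178 genes and 6 members did not overlap, and with 1 library left out 3807 to 4574 genes and 4 to 8 members, since fewer values overlap less often. The lists, with 0 calls each, had 1 for coactivators (no filter, DESeq2, limma-voom, no robust estimation, 0.1), 1 for PPAR targets (no filter, 0.1) and 2 with DESeq2, 1 for retinoic acid receptor targets (no filter, DESeq2, 0.1; 0 to 1 over left-out libraries, 1 without WT 3) and 2 with the block (Crabp2, 1.85, adjusted p = 0.0220, and Tgm2, 2.36, adjusted p = 0.0248), and 1 each for liver X receptor targets and clock genes with DESeq2. The genes whose sign changed were uncalled. With the block and without it, the 4 libraries gave log2 fold changes of 0.123 and 0.119 for Rxrb, -1.32 and -1.47 for Spp1, and 0.0397 and 0.0423 for Lrp5. Over left-out libraries the log2 fold change ran from -0.61 to 0.15 for Esr2, -0.13 to 0.21 for Rarg, -0.12 to 0.053 for Rxrb, -0.56 to 0.15 for Ppara, -0.46 to 0.044 for Nr1d2, -0.037 to 0.19 for Nr2c1, -0.25 to 0.061 for Nr2f6, -0.067 to 0.25 for Nr4a1, -1.07 to 2.07 for Spp1, -0.20 to 0.00066 for Lrp5, -0.72 to 0.14 for Klf9 and -0.23 to 0.53 for Hr. The cause was not tested. The numbers 3 and 4 are shared by only 2 pairs of libraries, whose deviations from the group means correlated at 0.297 and 0.661, against -0.529 and -0.572 for the crossed pairs; 2 pairs do not settle whether the number marks a pairing, and the labels give none. With the replicate block Esr1 had a log2 fold change of 9.42. Depth limits the members with few counts, and 3 libraries per group limit small differences.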
